A study of Drosophila melanogaster with 12 samples.

Results

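The alkaline phosphatase genes of Drosophila melanogaster (the fly) were followed in whole flies kept on erythritol medium or on normal medium. The family was taken up because Alp8 had the largest rise of any gene at 96 h, so every 96 h comparison between the media is given here as a description, without a test. Its 10 members were the count table genes whose FlyBase symbol is Alp2, Alp4, Alp6, Alp7, Alp8, Alp9, Alp10, Alp11, Alp12 or Alp13, out of 17707 genes in all. Of the 10 members, 9 had a row under their identifier, 8 had counts and 8 entered the test. Alp2 was not matched by identifier and was not analysed here. Alp6 had 0 counts in all 12 libraries.

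The 4 groups of 3 libraries each were flies fed erythritol for 72 h (T72h), their controls without erythritol (CK72h), flies fed erythritol for 96 h (T96h) and their controls (CK96h). All groups started as newly emerged flies, and the erythritol medium was the normal sucrose, corn and yeast medium with 1 mol/L of erythritol, a four-carbon sugar alcohol that kills flies, added to it. Each library came from pooled whole flies whose strain and sex no source used here gives. The RNA was enriched for poly(A) tails. A change in RNA of whole flies cannot tell fewer cells of a type from less RNA per cell.

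Alkaline phosphatases are metalloenzymes that remove phosphate from small molecules at alkaline pH. Animal members are typically held on the outer face of the cell membrane by a glycosylphosphatidylinositol (GPI) lipid anchor, and in vertebrates the intestinal form sits on the brush border of absorptive cells. In the fly, Alp4 is known from the Malpighian tubules, the excretory organ, and from the brain. For the other members no single role is given here.

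The libraries held 20869700 to 22436061 counts in T72h, 20131349 to 21996863 in CK72h, 19855575 to 20838299 in T96h and 20785863 to 23327826 in CK96h. Replicate 3 of T72h stood apart, with 16.5% of its counts from the mitochondrial genome, against at most 11.9% in any other library. Values are CPM (counts relative to library size), with library sizes scaled by TMM factors. Fold changes and adjusted p-values (Benjamini-Hochberg over 13179 genes) come from 1 edgeR quasi-likelihood fit of all libraries, and calls required that the adjusted p be under 0.05 and the log2 fold change be 1.5 or more in size. The standard error was taken as the size of the log2 fold change over the root of the F statistic. The labels do not say whether replicates were separate pools of flies, and the methods call them biological, so the p-values measure the spread between these libraries only. Markers of midgut, Malpighian tubule, eggshell, testis, male accessory gland, fat body, nervous system and muscle were all detected, and no matched marker was without counts. At 72 h, 8 of 11 eggshell and 10 of 11 accessory gland markers tested were called lower. So were 6 of 9 fat body, 8 of 20 midgut, 1 of 18 testis and 1 of 9 nervous system markers. Called higher were 2 of 9 muscle and 2 of 20 midgut markers, and 0 of 13 tubule markers were called either way. Over all genes tested, 8.92% were called lower and 3.95% higher, so the nervous system count is near that share. The mean summed levels of some of these lists also differed between the control groups. From CK72h to CK96h they went from 5462 to 2175 CPM for testis and from 2153.5 to 852 CPM for accessory gland. They went from 3899 to 7810 CPM for eggshell and from 7717 to 19043 CPM for fat body. The part of these shifts in the 72 h and between-time values of the members was not tested.

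Members of the family lie alone or close together on 5 chromosome arms. In the dm6 assembly, Alp7 (2R, 22203694 to 22205593), Alp2 (22206005 to 22207987) and Alp8 (22208464 to 22210765) follow each other on the minus strand, with 411 bp between Alp7 and Alp2 and 476 bp between Alp2 and Alp8. Alp10 (3L, 5592741 to 5595272, minus strand) and Alp9 (3L, 5595542 to 5597422, plus strand) point away from each other with 269 bp between them. Alp4 is on 3R (31048929 to 31052540), Alp13 on 3R (10073821 to 10075373), Alp6 on 2R (9561638 to 9563871), Alp12 on 2L (19424050 to 19429224) and Alp11 on X (15587733 to 15589365).

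**Figure D1:**
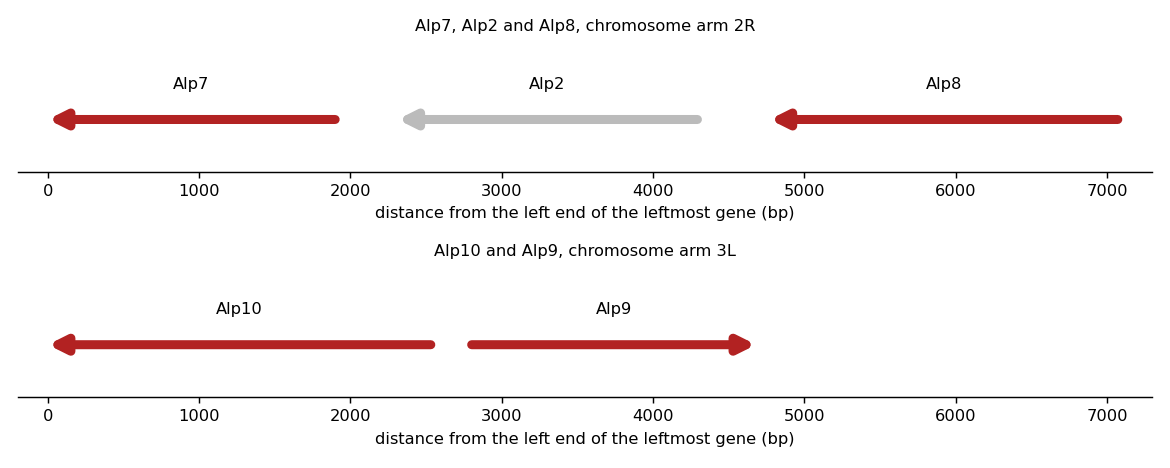
Arrangement of the neighbouring family genes, drawn to scale, with distance in bp from the left end of the leftmost gene on the x axis. Arrows point in the direction of transcription, red arrows are genes with a row in the count table, and the grey arrow is Alp2. Alp7, Alp2 and Alp8 run the same way, and Alp10 and Alp9 run apart from a gap of 269 bp.

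Alp8 was nearly silent in control flies and was present in every erythritol-fed library. At 72 h it had 220, 221 and 186 counts in T72h libraries, against 4, 6 and 8 in CK72h libraries. These counts correspond to 11.0, 10.6 and 9.44 CPM in T72h and 0.167, 0.261 and 0.356 CPM in CK72h, and the groups did not overlap. The 72 h comparison was not used to choose the family, and here Alp8 rose with a log2 fold change of 5.29 (standard error 0.190, adjusted p = 2.26e-27 in edgeR's quasi-likelihood test). That change was number 10 from the highest among the 13179 genes tested. Alp8 reached 10 counts in every library only in T72h and T96h, so it entered the test through the groups where it was high. Its p-value and rank are therefore no independent support for the rise. Taken from the counts alone, 627 against 18, the ratio was 40.0 with an exact 95% interval of 25.1 to 67.9, which covers counting error only.

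The 96 h values of Alp8 chose the family and are a description only. T96h libraries had 1077, 995 and 1069 counts (50.4, 50.2 and 51.5 CPM), and CK96h libraries had 1, 2 and 1 counts (0.0497, 0.101 and 0.0432 CPM). The log2 fold change of 9.51 is the value that led to the choice of the family and is number 1 from the highest of all genes tested. On 3141 and 4 counts the ratio was 799, with a counting interval of 312 to 2933. Set against 72 h, the level was 50.7 ± 0.696 CPM in T96h against 10.4 ± 0.822 CPM in T72h (SD, n = 3 each), a ratio of 4.89 (counting interval 4.49 to 5.34), and 0.0647 ± 0.0318 CPM in CK96h against 0.261 ± 0.0941 CPM in CK72h, a ratio of 0.245 (0.0603 to 0.744) on 4 and 18 counts. These intervals cover counting error only and test nothing.

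Alp7, at the other end of the 2R trio, also had most of its counts in erythritol-fed flies, but at a low level that did not differ detectably between the times. It had 48, 45 and 31 counts in T72h and 3, 2 and 4 in CK72h. The groups did not overlap, and the log2 fold change was 3.92 (standard error 0.414, adjusted p = 1.78e-11). Alp7 too reached 10 counts in every library only in T72h and T96h. It could hardly have entered the test without differing, so this p-value is no independent support. Replicate 3 of T72h was the lowest of its group at 1.57 CPM, and without it the log2 fold change was 4.13. At 96 h Alp7 had 30, 26 and 41 counts in T96h and 0, 2 and 3 in CK96h, a ratio of 19.7 (counting interval 8.17 to 62.1) against 15.8 (8.07 to 35.4) at 72 h. Between T96h and T72h the log2 fold change was -0.39 (standard error 0.265, adjusted p = 0.224), with overlapping libraries.

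Of the genes flanking this trio, 1 was tested, and it was lower on erythritol at 72 h. CG11291, 605 bp beyond Alp8, was at 13.2 ± 0.435 CPM in T72h and 26.0 ± 0.188 CPM in CK72h, which is -0.98 on the log2 scale (adjusted p = 2.94e-15), and at 24.8 ± 2.65 CPM in T96h and 10.2 ± 0.623 CPM in CK96h (SD, n = 3 each). asRNA:CR45376, on the Alp7 side, averaged 0.0823 CPM in T72h and 0.0293 CPM in CK72h, and 0.112 CPM in T96h and 0.0479 CPM in CK96h, too low to be tested.

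Alp4 held most of the transcripts of the 8 measured members in erythritol-fed flies, and its libraries on erythritol lay above those of controls at both times. It was at 991, 999.9 and 927 CPM in T72h libraries, against 195, 194 and 187 CPM in CK72h libraries. The highest control library was thus far below the lowest erythritol library, and the log2 fold change of 2.34 (standard error 0.0420, adjusted p = 6.62e-39) corresponded to a fold of 5.06. Over 21 alternative settings it lay between 2.08 and 2.42, with an adjusted p of at most 1.05e-21. At 96 h Alp4 was at 1085, 1107 and 1061 CPM in T96h and 170.3, 171 and 159 CPM in CK96h, a fold of 6.50.

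Control flies had slightly less Alp4 RNA at 96 h than at 72 h, a log2 fold change of -0.20 (standard error 0.0417, adjusted p = 2.65e-05). Between T96h and T72h the value was 0.16 (standard error 0.0394, adjusted p = 7.92e-04), but without replicate 3 of T72h it was 0.079 and no longer passed (adjusted p = 0.0569), as with RLE factors (0.077, adjusted p = 0.104) and in DESeq2 (adjusted p = 0.0878). Neither passed the fold threshold. The marker lists moved beside it as follows. The summed level of 14 matched Malpighian tubule markers of 15 listed was 624 to 663 CPM in T72h against 578 to 587 CPM in CK72h, and 513 to 527 CPM in T96h against 546 to 564 CPM in CK96h. The summed level of 20 midgut enterocyte markers was 12441 to 14113 CPM in T72h against 19528 to 19904 CPM in CK72h, and 10717 to 10752 CPM in T96h against 18320.1 to 22091 CPM in CK96h. Of the tubule markers 13 were tested and 0 were called at 72 h in edgeR, where 7 were higher and 5 lower by adjusted p alone. Of the midgut markers 2 were called higher and 8 lower. Over all genes tested, 3.95% were called higher and 8.92% lower, and 79.4% passed by adjusted p alone (37.3% higher, 42.1% lower). Neither list had a marker at 0, and their part in the Alp4 result was not tested. Of the flanking genes, the log2 fold change at 72 h was 0.71 for Chchd3, 75 bp away on the facing strand (adjusted p = 6.24e-20), and 1.13 for CanA1 (adjusted p = 9.55e-17), both below the fold threshold. mir-4948 on the opposite strand shares 4.39% of the exon bases of Alp4 and had no counts.

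**Figure D2:**
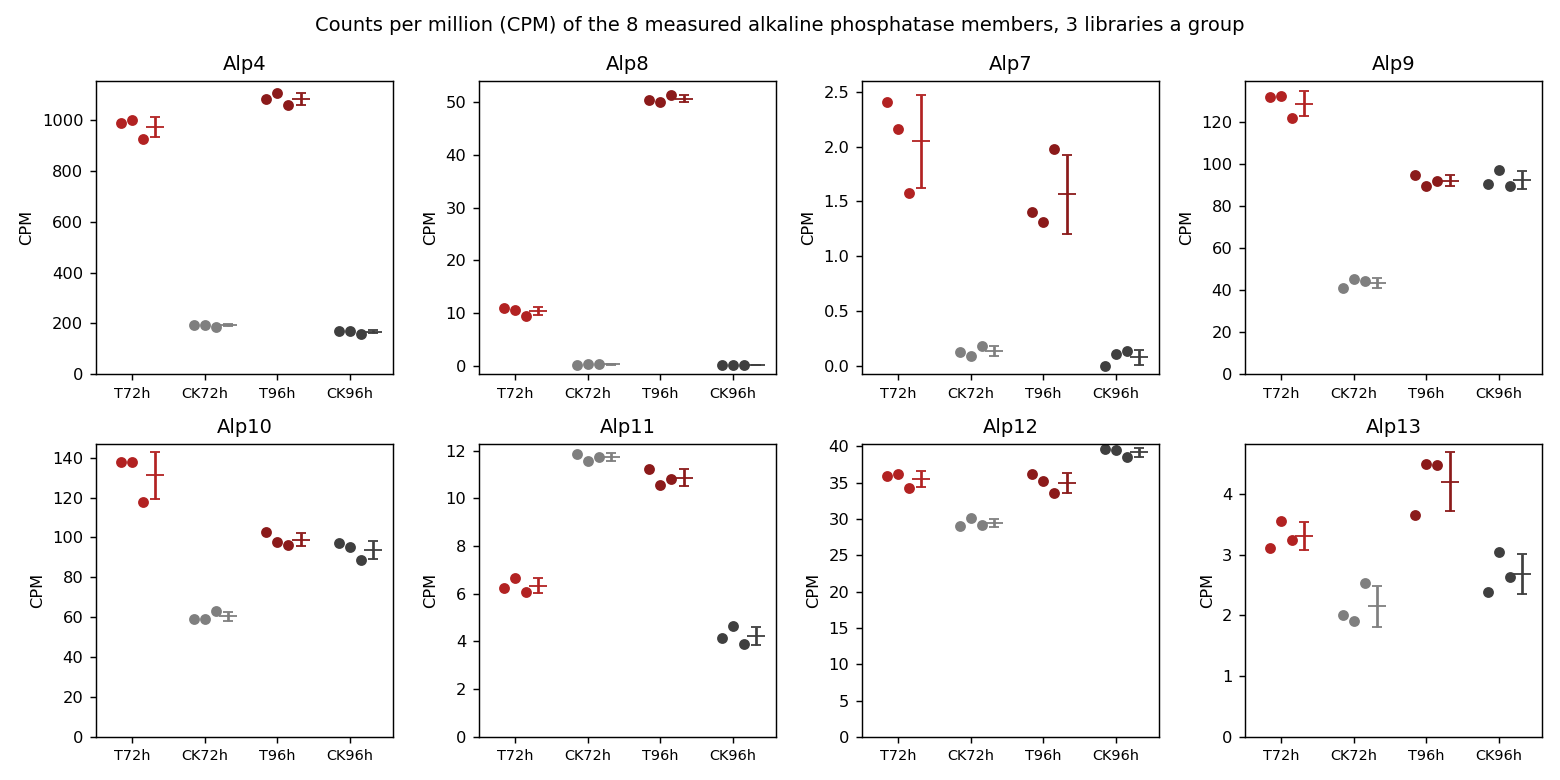
CPM of each measured member (y axis, separate linear scale for each gene) in the groups T72h, CK72h, T96h and CK96h (x axis). Points are the 3 libraries of a group, and the bar beside them is the mean with the SD. Alp4, Alp8 and Alp7 are high in both erythritol groups, Alp9 and Alp10 stand out in T72h and coincide in T96h and CK96h, and Alp11 is high in CK72h and T96h.

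The neighbours Alp9 and Alp10 were higher in erythritol-fed flies at 72 h, and at 96 h the libraries of the media overlapped. Alp9 was at 132, 132 and 121 CPM in T72h and 40.8, 45.2 and 44.1 CPM in CK72h, and rose with a log2 fold change of 1.57 (standard error 0.0454, adjusted p = 6.50e-31). This value lies just above the fold threshold and fell below it with library totals (1.31) and with upper-quartile factors (1.44). Alp10 was at 138, 138 and 118 CPM in T72h and 58.9, 59.3 and 63.2 CPM in CK72h. Its log2 fold change of 1.12 (standard error 0.0527, adjusted p = 3.71e-16) did not reach the fold threshold, although the groups did not overlap.

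At 96 h the values of both genes lay side by side. Alp9 was at 94.8, 89.5 and 91.7 CPM in T96h and 90.4, 96.9 and 89.3 CPM in CK96h, a log2 fold change of -0.0027. Alp10 was at 103, 97.7 and 96.2 CPM in T96h and 97.4, 95.0 and 88.8 CPM in CK96h, a log2 fold change of 0.078. Both sides had moved. In control flies the log2 fold change at 96 h relative to 72 h was 1.09 for Alp9 (standard error 0.0462, adjusted p = 2.74e-24) and 0.63 for Alp10 (standard error 0.0537, adjusted p = 7.20e-11), against a median of 0.12 over all genes tested. In erythritol-fed flies it was -0.48 (standard error 0.0426, adjusted p = 3.19e-13) and -0.41 (standard error 0.0509, adjusted p = 1.91e-07). None of these 4 changes reached the fold threshold.

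Although the 2 genes moved together, they did not do so to the same degree. Per kb of exon length the ratio of Alp9 to Alp10 was 0.889 to 0.960 in T72h libraries against 0.645 to 0.708 in CK72h libraries, which did not overlap, and 0.851 to 0.887 in T96h against 0.863 to 0.949 in CK96h, which did. With 3 libraries against 3 an exact two-sided permutation test of a single value cannot go below p = 0.1. Their outer neighbours went the other way. spo, which encodes a cytochrome P450 of ecdysone synthesis and lies 169 bp from Alp10, fell by 4.06 on the log2 scale at 72 h (adjusted p = 3.09e-15), and CG10591, beyond Alp9, fell by 5.90 (adjusted p = 1.32e-28). Alp5, an alkaline phosphatase gene on 3R outside the 10 members, had values like those of the pair. It was at 82.1 ± 5.92 CPM in T72h and 29.9 ± 1.14 CPM in CK72h, and at 71.9 ± 2.82 CPM in T96h and 68.4 ± 3.07 CPM in CK96h (SD, n = 3 each). Its log2 fold change at 72 h was 1.45 (standard error 0.0525, adjusted p = 2.86e-27), under the fold threshold, and 1.55 without replicate 3 of T72h, above it. Alp5 lies within Calx on the opposite strand but shares no exon bases with it.

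Alp11 was the only tested member that was lower in T72h than in CK72h, and at 96 h its libraries stood in the opposite order. It was at 6.26, 6.68 and 6.09 CPM in T72h and 11.9, 11.5 and 11.7 CPM in CK72h, a log2 fold change of -0.88 (standard error 0.102, adjusted p = 2.17e-10) that did not reach the fold threshold. At 96 h it was at 11.2, 10.5 and 10.8 CPM in T96h and 4.13, 4.66 and 3.89 CPM in CK96h, a log2 fold change of 1.37. Neither pair of groups overlapped. In control flies the level at 96 h relative to 72 h had a log2 fold change of -1.48 (standard error 0.109, adjusted p = 5.27e-16), and in erythritol-fed flies 0.77 (standard error 0.105, adjusted p = 2.60e-08). The control value missed the fold threshold by little and passed it with RLE factors (-1.52), upper-quartile factors (-1.64), library totals (-1.67), in DESeq2 (-1.52), in a fit of these 6 libraries alone (-1.58), without replicate 2 of CK96h (-1.55) and without replicate 3 of T72h (-1.58).

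The summed level of 18 testis markers, like Alp11, was lower in T72h than in CK72h and higher in T96h than in CK96h. It was 2664 to 2759 CPM in T72h against 5433 to 5499.9 CPM in CK72h, and 5681 to 5748 CPM in T96h against 2150.4 to 2191 CPM in CK96h. Between the 2 higher groups the order differed, since the testis sum was higher in T96h than in CK72h and Alp11 was lower. The median log2 fold change of these 18 markers was -1.04 at 72 h and 1.28 at 96 h. At 72 h, 1 of them was called lower, where 8.92% of all genes tested were. By adjusted p alone in edgeR, all 18 were lower at 72 h, where 42.1% of all genes were. No marker was at 0, and their part in the Alp11 result was not tested. Chsy, whose span overlaps Alp11 on the opposite strand without sharing exon bases, was higher by 0.85 on the log2 scale at 72 h (adjusted p = 9.68e-13). The next genes on either side, CG8097 and sog, had values of -0.58 and 1.04.

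At 72 h, Alp12 and Alp13 had the smallest log2 fold changes in size of the 8 members tested. Alp12 was at 36.0, 36.2 and 34.2 CPM in T72h and 29.1, 30.1 and 29.2 CPM in CK72h, a log2 fold change of 0.27 (standard error 0.0548, adjusted p = 2.62e-05) that fell to 0.012 with library totals (adjusted p = 0.867). At 96 h it was at 36.2, 35.3 and 33.5 CPM in T96h and 39.7, 39.4 and 38.5 CPM in CK96h. The groups did not overlap at either time, and their order turned between the times. In control flies it was higher at 96 h, with a log2 fold change of 0.41 (standard error 0.0539, adjusted p = 4.57e-09). Of its exon bases, 16.8% also belong to exons of CG13085 or Pax. The strand setting of the counting is not stated, so the assignment of reads in these bases is uncertain. At 72 h the log2 fold change was 0.12 for CG13085 and -0.04 for Pax, and 1.22 and 0.55 for the neighbours lectin-37Db and RtcB.

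Alp13 had 62, 74 and 64 counts in T72h and 48, 44 and 57 in CK72h, or 3.30 ± 0.231 CPM against 2.15 ± 0.335 CPM (SD, n = 3 each). Its log2 fold change was 0.62 (standard error 0.180, adjusted p = 0.00197), below the fold threshold, and with library totals it was 0.36 (adjusted p = 0.0668). At 96 h it was at 4.21 ± 0.479 CPM in T96h and 2.69 ± 0.329 CPM in CK96h. Neither CK96h against CK72h (0.32, adjusted p = 0.107) nor T96h against T72h (0.35, adjusted p = 0.0746) passed the test. Of its neighbours, nerfin-2 was too low to be tested and lncRNA:CR45054 had a log2 fold change of 1.25 at 72 h.

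Alp6 was listed at 0 in every library. A count of 0 allows up to 3 counts, which is 0.129 to 0.151 CPM in these libraries. All of its exon bases also lie in exons of asRNA:CR45281 on the opposite strand, which had 0.866 ± 0.351 CPM in T72h and 0.924 ± 0.0935 CPM in CK72h (SD, n = 3 each), so the listing does not show that Alp6 was silent. Of its neighbours, Or45b had no counts and Not1 was higher by 0.25 on the log2 scale at 72 h.

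**Figure D3:**
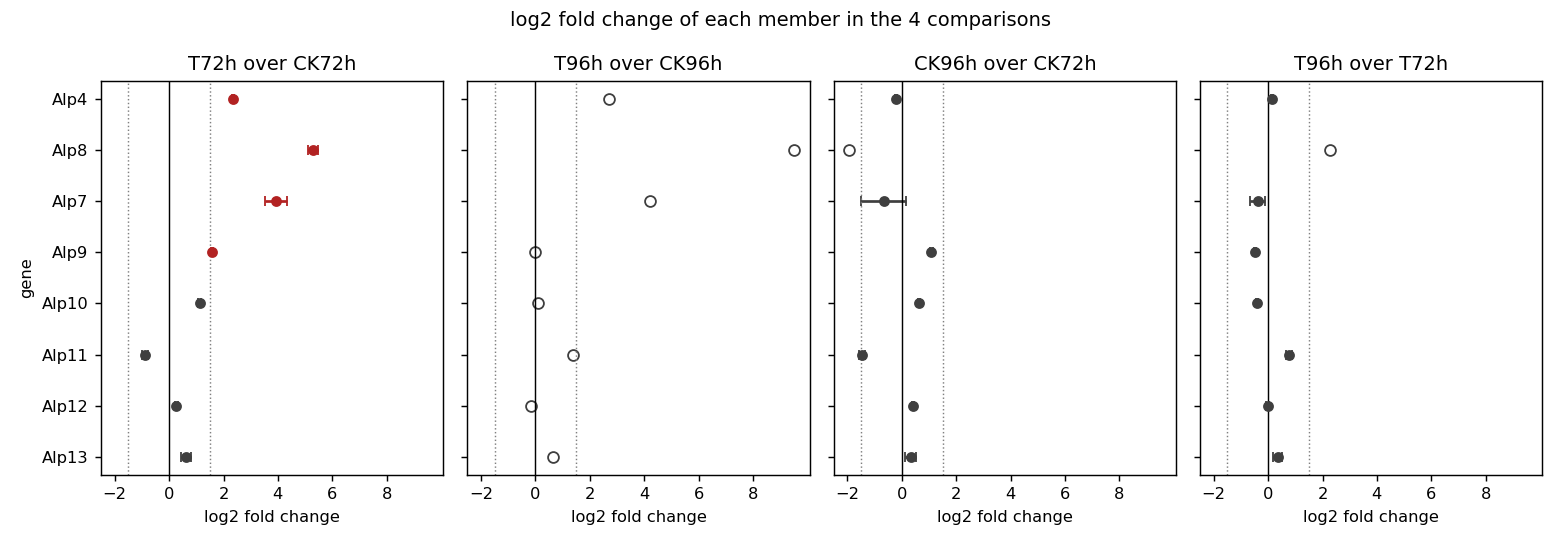
log2 fold change of each measured member (x axis, the same scale in every panel) for erythritol against control at 72 h and 96 h and for 96 h against 72 h in control and in erythritol-fed flies. Filled points were tested, with bars of 1 SE, and are red where called. Open points are given without a test because the family was chosen from them or from their libraries, and dotted lines mark the fold threshold of 1.5. At 72 h the called members are Alp4, Alp8, Alp7 and Alp9.

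Across the members, 4 of the 8 tested were called higher and 0 called lower at 72 h, where 12.9% of all genes tested were called, 3.95% higher and 8.92% lower. Alp7 and Alp8 reached the minimum count only in erythritol libraries and could hardly have entered the test without differing. Of the other 6 members, with at least 10 counts in every library, 2 were called higher. By the adjusted p alone, 5 of these 6 were higher and 1 lower, where 37.3% of all genes were higher and 42.1% lower (79.4% in all). The libraries of the media did not overlap for any of the 8 members, 7 higher and 1 lower, where 79.7% of all genes did not overlap (37.2% higher, 42.4% lower). The same counts were found without replicate 3 of T72h. At 96 h, 3 of the 8 members had a log2 fold change of at least 1.5, where 11.1% of all genes had a value of that size (3.98% higher, 7.16% lower). At that time no overlap was seen for 6 members, 5 higher and 1 lower, against 80.8% of all genes (39.1% higher, 41.7% lower). Nothing is read from the 96 h counts.

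Between the times, 0 of the 7 members other than Alp8 were called in control flies (5.60% of all genes) or in erythritol-fed flies (1.40%) by edgeR. Alp11 is called lower in CK96h under the alternatives named above. By the adjusted p alone, Alp9, Alp10 and Alp12 were higher and Alp4 and Alp11 lower in CK96h than in CK72h (5 of 7, where 82.3% of all genes passed, 47.0% higher and 35.2% lower), and Alp4 and Alp11 were higher and Alp9 and Alp10 lower in T96h than in T72h (4 of 7, where 53.1% passed, 26.4% higher and 26.7% lower). The diet comparison at 72 h and the control comparison share the CK72h libraries, and the values are given side by side.

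Per kb of exon length, the summed level of the measured members was several times higher on erythritol than on normal medium, and Alp4 made up most of the difference. The sum over the 8 measured members was 569 ± 27.6 CPM per kb in T72h and 155 ± 1.02 in CK72h, and 599 ± 9.73 in T96h and 188 ± 7.03 in CK96h (SD, n = 3 each). Alp4 held 70.8 ± 0.539% of the sum in T72h and 51.4 ± 1.30% in CK72h, and 75.0 ± 0.599% in T96h and 36.8 ± 0.244% in CK96h. Without Alp4 the sum was 166 ± 11.0 CPM per kb in T72h and 75.5 ± 2.29 in CK72h, and 150 ± 3.22 in T96h and 119 ± 4.40 in CK96h. Alp2 and Alp6 are not in these sums, and neither is Alp5, which is outside the members. Alp5 was at 49.0 ± 3.53 CPM per kb in T72h and 17.9 ± 0.682 in CK72h, and at 42.9 ± 1.69 in T96h and 40.8 ± 1.83 in CK96h.

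The order of the levels per kb began with Alp4, Alp10 and Alp9 in every group. Alp10 and Alp9 overlapped in T72h (75.0 ± 6.66 and 68.3 ± 3.23 CPM per kb) and in CK96h (53.6 ± 2.53 and 49.0 ± 2.19) but not in T96h or CK72h. Alp8 held the place of least or next to least expressed member in the control groups, where it overlapped with Alp7. In T72h it was number 5 of 8, at 4.75 ± 0.377 CPM per kb. In T96h it was number 4 of 8, at 23.2 ± 0.319 CPM per kb, above Alp12 at 10.4 ± 0.401.

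**Figure D4:**
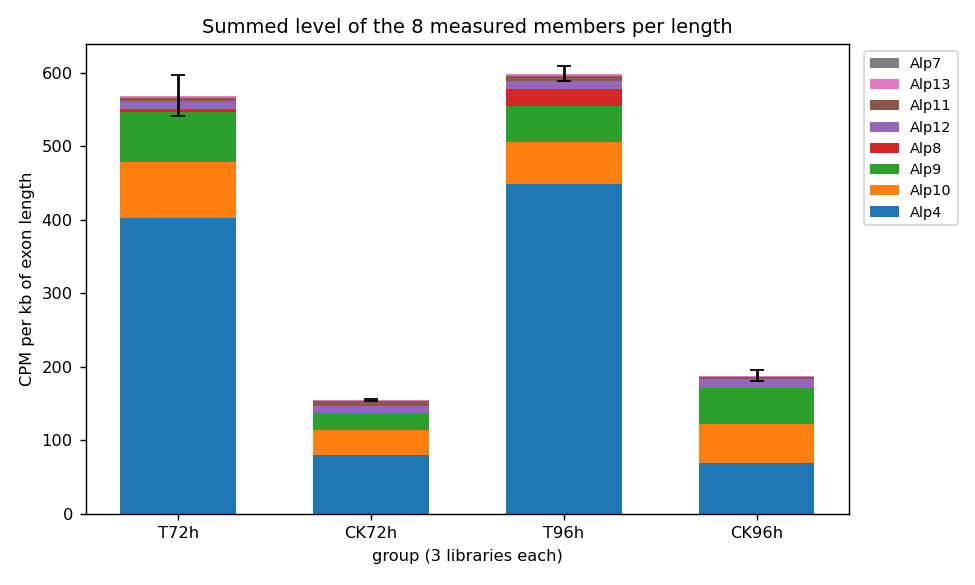
Mean CPM per kb of exon length (y axis) of the 8 measured members, stacked, in the groups T72h, CK72h, T96h and CK96h (x axis, 3 libraries each). The error bar is the SD of the sum over libraries. The sums are 569 in T72h, 155 in CK72h, 599 in T96h and 188 in CK96h, and Alp4, at the base, is the largest part in every group.

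The genes most like Alp8 over the 12 libraries followed it in direction with far smaller amplitude. By Pearson's r of log2 CPM, across the 10071 genes whose mean log2 CPM was 2 or more, they were CG8908 (0.996), CG10365 (0.995), CG16758 (0.995), Drat (0.994) and Pi4KIIalpha (0.994). The libraries share the diet and time groups, so r describes the order of the 4 groups rather than 12 independent points. These genes were picked for their high r, so the shared direction follows from the choice. That r also includes the 96 h values of Alp8 that chose the family. Drat was at 346 CPM in T72h against 134 CPM in CK72h and at 517 CPM in T96h against 128 CPM in CK96h. CG8908 was at 16.7 CPM in T72h against 5.70 CPM in CK72h and at 23.6 CPM in T96h against 3.97 CPM in CK96h.

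Among gene lists related to alkaline phosphatase function, members of 3 were called at 72 h and none of the acid phosphatases or GPI anchor genes was. Over all genes tested, 3.95% were called higher and 8.92% lower (12.9% in all), and by adjusted p alone 37.3% were higher and 42.1% lower. Of 8 acid phosphatase genes, which cleave phosphate esters at low pH in lysosomes and outside cells, 0 were called in either direction in edgeR, 4 were higher and 3 lower by adjusted p alone, and the median log2 fold change was 0.20. Over all genes tested the median was -0.047. Mipp1, an inositol polyphosphate phosphatase and the most abundant of them, was at 153 ± 5.18 CPM in T72h and 136 ± 3.80 CPM in CK72h (SD, n = 3 each). Of 23 GPI anchor genes tested, 0 were called, 6 were higher and 4 lower by adjusted p alone, where 79.4% of all genes passed, and the median was 0.043. GAA1, a subunit of the transamidase that attaches the anchor, was at 56.2 ± 0.537 CPM in T72h and 56.0 ± 2.33 CPM in CK72h (adjusted p = 0.954).

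Some genes of pterin and folate metabolism are grouped with alkaline phosphatases in pathway maps, because these can remove the phosphates of a pterin precursor. Genes of the pterin and folate list moved in both directions. Of 14 tested, 4 were called higher and 1 lower at 72 h, against 3.95% and 8.92% of all genes, with a median of 0.25. pug and Nmdmc, which encode enzymes that interconvert one-carbon forms of folate, rose, pug to 399 CPM in T72h against 95.7 CPM in CK72h (2.06 on the log2 scale, adjusted p = 1.85e-38) and Nmdmc to 118 CPM against 18.8 CPM (2.65, adjusted p = 3.94e-38). Hn and Mocs1 also rose, with 1.95 and 2.47, and se, an eye pigment gene, fell by 3.12 on the log2 scale. These last 3 were named after their values were seen.

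Of 8 genes of extracellular nucleotide breakdown tested, 1 was called higher and 0 lower, a share near the 12.9% of all genes called, with a median of 0.098. The called gene was NTPase, a nucleoside triphosphate diphosphohydrolase, at 266 ± 5.88 CPM in T72h and 88.4 ± 2.52 CPM in CK72h (log2 fold change 1.59, adjusted p = 6.71e-35). The call ended with library totals and with upper-quartile factors. Of 13 genes of phosphate transporters and their relatives, 2 were called higher and 3 lower, against 3.95% and 8.92% of all genes, with a median of -0.53. MFS14, of the major facilitator superfamily, was at 371 ± 3.24 CPM in T72h and 61.6 ± 0.431 CPM in CK72h (log2 fold change 2.59, adjusted p = 1.86e-42). Picot, a phosphate cotransporter gene, was at 407 ± 8.60 CPM in T72h and 134 ± 1.69 CPM in CK72h (log2 fold change 1.60, adjusted p = 2.15e-35), and fell below the fold threshold with library totals (1.35) and upper-quartile factors (1.47). The 3 called lower, named after their values were seen, were MFS1 (log2 fold change -4.32), CG9825 (-3.85) and CG9826 (-3.37).

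**Figure D5:**
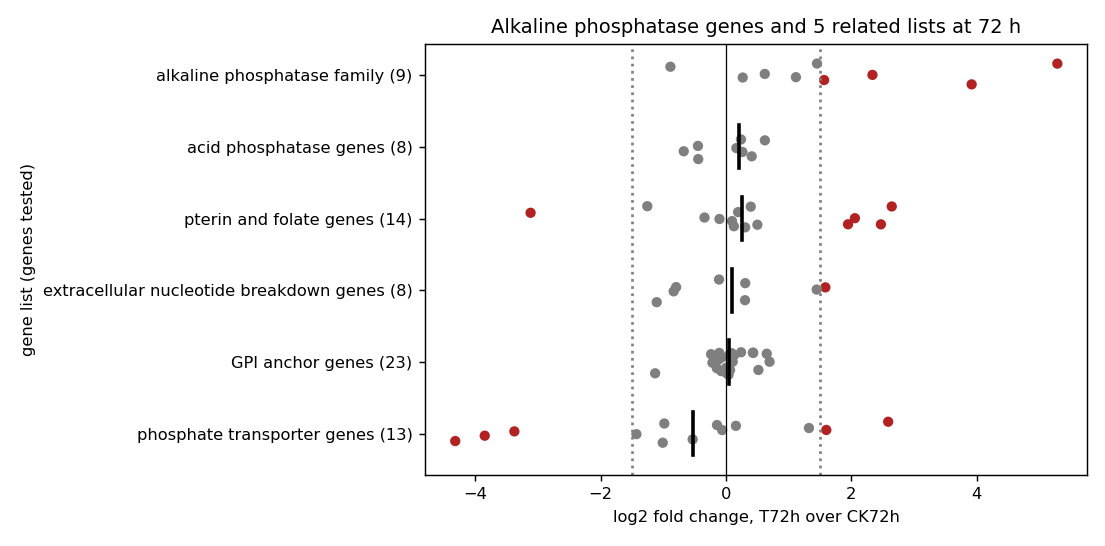
log2 fold change at 72 h, erythritol over control (x axis), of each tested gene in the alkaline phosphatase family (Alp5 included) and in 5 related lists (y axis, number of genes tested in brackets). Red points were called, grey points were not, black bars are the medians of the related lists and dotted lines mark the fold threshold of 1.5. Points called higher are in 4 of the lists, and all points of the acid phosphatase and GPI anchor lists lie between the dotted lines.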

How the data were processed

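The deposited values are raw counts per gene in 12 libraries. Per the labels and the methods, the authors trimmed reads for adapters and quality and aligned them with HISAT2 to the FlyBase release 6 genome, and the processing notes name CASAVA 1.8. How reads were counted, and whether by strand, is not given in the sources used here. Genes were named by identifier with a FlyBase table and placed by an Ensembl annotation of the same assembly (dm6). No sequences of the members were used.

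Counts were analysed in R 4.3.3 with edgeR 4.0.16: its expression filter on the groups (13179 genes kept of 17707), TMM factors, and a robust quasi-likelihood fit of the 4 groups. CPM per kb uses merged exon length. DESeq2 1.42.0, other factors and filters, both groups alone, a replicate block and each library left out were alternatives. Pairs of libraries of a group differed by a chi-square per degree of freedom of 1.77 or more, so none is a copy. The steps were also run on simulated counts with the same spread for all genes and libraries, unlike these data. No result here rests on that run.

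The members, lists and tests were chosen with earlier results of these data known. All 10 members are named, with the 2 called genes of smallest adjusted p and the most abundant gene of each related list, the 5 genes most like Alp8 and the members' direct neighbours.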

Additional observations from a re-analysis of the deposited data

Results flagged for a closer look

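Alp11 and Alp12 were flagged because all their erythritol libraries lay on opposite sides of the control libraries at 72 h and at 96 h. Libraries of the media did not overlap for 79.7% of all genes at 72 h and 80.8% at 96 h. How many of all genes changed side was not counted, so the change is not shown to be particular to Alp11 and Alp12. The log2 fold change of Alp11 was -0.88 at 72 h and 1.37 at 96 h, and that of Alp12 was 0.27 at 72 h and -0.16 at 96 h. Whether the difference between the media changed from 72 h to 96 h was not tested. The 96 h comparison between the media had been used to choose the family. Changes between the times within each medium were tested for both genes. Replicate 3 of T72h moved the 96 h value of Alp12 to -0.054 when left out, and the 72 h value of Alp12 was 0.012 with library totals.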

How the results depend on the processing

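At 72 h the count of 4 members called higher held under all 12 fits that left out a library, with a range of 4 to 4, and the direction of every member held under all 21 alternatives. Alp7 and Alp8 are 2 of the 4 called and entered the test through the groups where they were high. Their calls and directions are therefore no independent support. Of the 6 members with at least 10 counts in every library, 2 were called higher in the main fit. With upper-quartile factors and library totals Alp9 lost its call and the median of all genes moved by -0.13 and -0.26. In the control comparison between the times, 1 member (Alp11) was called lower with RLE factors, upper-quartile factors, library totals, DESeq2 and both groups alone, and 0 to 1 with a library left out. In the erythritol comparison between the times, Alp12 had -0.020 and turned to 0.011 with upper-quartile factors, or 0.10 with library totals, and ranged from -0.089 to 0.014 with a library left out. None of these passed the test. Among the lists at 72 h, upper-quartile factors and library totals each left 0 nucleotide breakdown genes and 1 phosphate transporter gene called higher, library totals gave 2 pterin and folate genes called lower, and with a library left out the nucleotide breakdown genes called higher were 1 to 2. With the longest transcript as length, Alp4 was at 452 CPM per kb in T72h, 89.3 in CK72h, 504 in T96h and 77.5 in CK96h, and Alp12 at 13.0 in T72h, 10.8 in CK72h, 12.9 in T96h and 14.4 in CK96h.

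The replicate numbers did not pair the libraries: deviations of libraries with the same number correlated from -0.10 to 0.026 over the 3 pairs of T72h and CK72h, and from -0.10 to 0.16 over all pairs. With a replicate block 4 members, Alp7 and Alp8 among them, were called higher at 72 h, as without it, and no other call of a member changed. A fit without robust estimation of the spread, added after the data were seen, changed no call but gave larger p-values, 1.63e-24 for Alp4 and 5.26e-19 for Alp8 at 72 h. For Alp7 and Alp8 the 2 to 8 counts of a CK72h library limit the precision of the fold.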
